A study of Mus musculus with 10 samples.

Results

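The genes described here are 10 regulators and targets of mesenchymal transition: the transcription factor genes Snai1, Snai2, Twist1, Twist2, Zeb1, Zeb2 and Prrx1, and the genes Cdh2, Vim and Fn1 of the mesenchymal cell state. The set was chosen by gene name, and all 10 were among the 16290 genes of the deposited table and among the 15694 genes tested. The 10 RNA-seq libraries come from mammary epithelial cells of the FVB mouse strain and carry 4 genotypes, NIC-Prmt1 (3 libraries), NIC-Carm1 (3), NIC-Prmt6 (2) and NIC (2), and these numbers hold as n below. All 4 groups carry NIC, which the labels do not spell out; in mouse mammary tumour work this name is used for a transgene in which the MMTV promoter, active in mammary epithelium, drives an activated Neu receptor together with Cre recombinase. The 3 other groups are named for a PRMT, Prmt1, Carm1 or Prmt6, and the series is described as one of transgenic PRMT overexpression. PRMTs are enzymes that put methyl groups on arginines of histones and other proteins. The promoter of the PRMT transgenes, the age of the mice, and whether the glands held tumours are not given in the labels. The study asked which genes change in these cells when a PRMT is overexpressed. The cells were freed from mammary glands by enzymes and pulse centrifugation, so any stromal cells that came along were sequenced with the epithelium.

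In epithelial to mesenchymal transition, epithelial cells lose their junctions and take on the shape and motility of mesenchymal cells. Snail (Snai1, Snai2) and Zeb (Zeb1, Zeb2) zinc finger proteins repress epithelial genes such as the E-cadherin gene Cdh1 by binding short E-box sequences, Twist1 and Twist2 are basic helix-loop-helix factors that bind E-boxes of a wider kind, and Prrx1 is a homeobox factor of mesenchyme. N-cadherin (Cdh2), the intermediate filament protein vimentin (Vim) and the matrix glycoprotein fibronectin (Fn1) are the proteins usually read as products of the transition. The normal mammary gland holds all of these RNAs outside the luminal epithelium too: fibroblasts and vessel-associated cells express Vim, Fn1, Zeb, Twist and Prrx1 genes, and basal epithelial cells express Snai2 and Vim. In RNA of whole cell preparations, more cells of a type and more RNA per cell cannot be told apart.

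The promoter windows of Snai1, Twist1 and Vim are shown because Snai1 and Twist1 were the most closely correlated pair of these genes over the libraries and Vim had the highest level. Each window is RefSeq sequence of the GRCm38.p6 build, covering 250 bases before and 50 bases after a start annotated by RefSeq and written 5′ to 3′ on the gene's strand, with any CANNTG E-box in capitals. For Vim the RefSeq start lies inside the gene as GENCODE M21 places it, so the whole Vim window is within the gene span given further on. The windows lie at chr2:167537945-167538244 (plus strand) for Snai1, at chr12:33957421-33957720 (plus strand) for Twist1 and at chr2:13574061-13574360 (plus strand) for Vim.
Snai1: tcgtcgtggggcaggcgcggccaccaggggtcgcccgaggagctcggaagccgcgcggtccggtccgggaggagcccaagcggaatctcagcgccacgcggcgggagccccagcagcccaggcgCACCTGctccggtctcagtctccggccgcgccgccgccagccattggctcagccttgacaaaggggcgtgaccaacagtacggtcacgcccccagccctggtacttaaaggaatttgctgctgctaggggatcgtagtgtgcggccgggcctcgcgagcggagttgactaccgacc
Twist1: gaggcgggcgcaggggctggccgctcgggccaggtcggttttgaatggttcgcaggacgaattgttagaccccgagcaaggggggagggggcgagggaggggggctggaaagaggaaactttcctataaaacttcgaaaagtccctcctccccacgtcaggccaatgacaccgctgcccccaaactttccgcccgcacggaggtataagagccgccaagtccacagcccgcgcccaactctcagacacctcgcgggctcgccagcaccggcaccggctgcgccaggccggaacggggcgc
Vim: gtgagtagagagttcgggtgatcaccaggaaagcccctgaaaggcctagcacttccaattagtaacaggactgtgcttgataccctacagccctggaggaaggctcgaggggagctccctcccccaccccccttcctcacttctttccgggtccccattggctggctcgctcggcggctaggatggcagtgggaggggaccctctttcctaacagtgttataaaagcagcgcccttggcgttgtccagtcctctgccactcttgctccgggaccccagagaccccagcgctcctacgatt
Of the 10 genes, 6 had windows that were searched, 9 windows in all, since Zeb2 had 4. The letters CANNTG, which read the same pattern on both strands, were found once, as CACCTG at 126 bases before the start of Snai1; 72.3% of the 32851 promoter windows of the mouse table hold CANNTG. The narrower form CAGGTG or CACCTG, each the reverse complement of the other and both part of CANNTG, was in 20.2% of all windows. This describes the letters in these windows only.

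Each value below is a normalised read count, the reads of a gene divided by a size factor per library. Whole reads could be recovered from every column, between 21589274 and 30260921 per library, and the lowest count of any of the 10 genes in any library was 28 reads. Replicates 1 and 2 of NIC-Prmt6, and replicates 2 and 3 of NIC-Carm1, were nearly identical: their reads over all genes differed with a chi-square of 2.44 and 2.69 per degree of freedom, against 28.0 to 104.6 for the remaining 6 within-group pairs. Whether the libraries of a pair are repeat preparations of the same RNA, in which case NIC-Prmt6 would be 1 sample, cannot be told apart from very similar samples. All were used as labelled; where averaging each such pair to 1 library changes a count, both counts are given. The labels do not say that replicates came from separate mice, so p-values measure the spread between these libraries. That spread was estimated over all groups in 1 fit. The near-identical pairs therefore enter it in every comparison, also those without NIC-Prmt6 or NIC-Carm1, and can make it too small. Of the targeted genes, Prmt6 was at 873 and 909 in NIC-Prmt6, against 387 and 451 in NIC (adjusted p = 0.00321). Carm1 was at 2479, 2324 and 2146 in NIC-Carm1, against 1556 and 1567 in NIC (adjusted p = 0.00490), and it was higher than in NIC in the other transgenic groups as well. Prmt1 was at 2963, 2702 and 3258 in NIC-Prmt1, against 2675 and 3077 in NIC (adjusted p = 0.784). The labels NIC-Prmt1 and NIC-Carm1 therefore could not be checked from the targeted gene. The group names below mean the libraries labelled so.

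**Figure D1:**
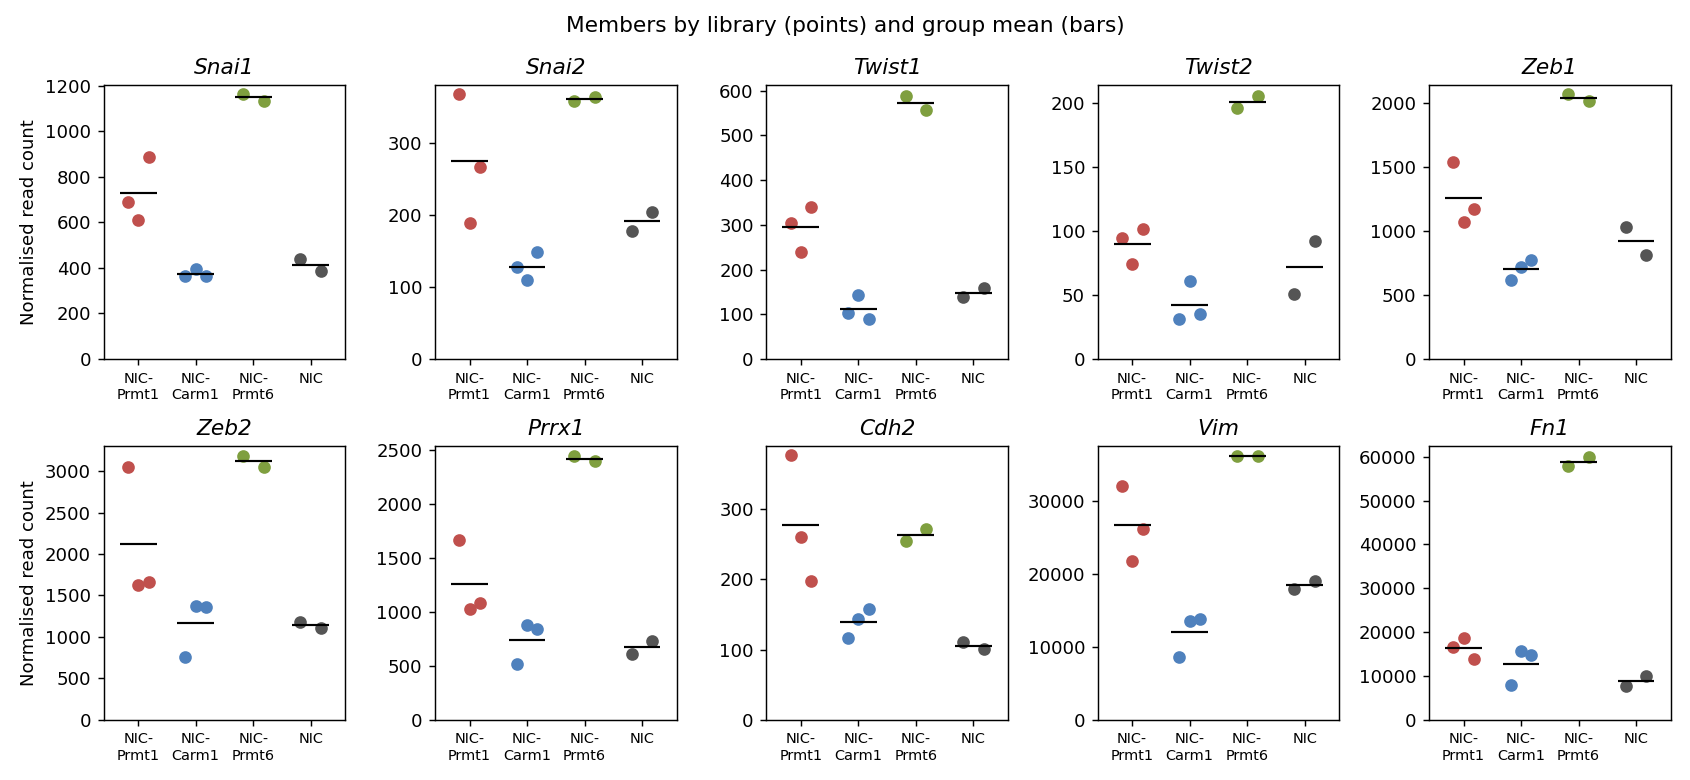
Normalised read count (y axis, linear from 0) of each of the 10 genes in every library, by group; points are libraries and bars are group means. The 2 NIC-Prmt6 libraries lie above both NIC libraries for every gene, with Fn1 at 57822 and 59911 in NIC-Prmt6, against 7701 and 9957 in NIC.

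Of the 3 comparisons with NIC, that of NIC-Prmt6 had the largest median difference. All 10 genes rose (limma with Benjamini-Hochberg adjustment over 15694 genes), where 19.0% of all tested genes were higher and 17.8% lower, and in all 10 both NIC-Prmt6 libraries lay above both NIC libraries, which was so for 38.1% of all tested genes. The share of all tested genes that changed in either direction was 36.8%, and 38.6% lay below NIC without overlap. The median log2 fold change was 1.46 over these genes and -0.011 over all tested genes. Log2 fold changes are given with their standard error. All 8 fibroblast markers also rose, with a sum of 12421 to 12448 CPM (counts of a gene relative to the total of its library) in NIC-Prmt6, against 3056 to 3795 CPM in NIC; the part of fibroblasts in the differences below was not tested.

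Both Snail genes were higher in NIC-Prmt6. Snai1, a repressor of the E-cadherin gene (chromosome 2, 167538195 to 167542814, plus strand, GRCm38), was at 1164 and 1134 in NIC-Prmt6 and 439 and 386 in NIC. Its log2 fold change was 1.48 ± 0.16 (adjusted p = 2.76e-04). Snai2, or Slug, which also marks basal mammary cells (chromosome 16, 14705852 to 14709385, plus strand), was at 359 and 364 in NIC-Prmt6 and 179 and 204 in NIC. It differed by 0.92 ± 0.27 (adjusted p = 0.0256), the smallest difference of the 10.

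The Twist genes differed by more. Twist1 (chromosome 12, 33957671 to 33959829, plus strand) was at 588 and 557 in NIC-Prmt6 and 138 and 159 in NIC, by 1.94 ± 0.24 (adjusted p = 4.25e-04). Its close relative Twist2 (chromosome 1, 91801461 to 91848028, plus strand) was at 197 and 206 in NIC-Prmt6 and 51.0 and 92.3 in NIC, by 1.54 ± 0.36 (adjusted p = 0.00952); here the NIC libraries lay far apart. An annotated antisense gene, Gm29100, shares 1477 exon bases with Twist2, and the library kit does not mark strand, so reads of the pair cannot be told apart.

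The Zeb repressors rose as well. Zeb1 (chromosome 18, 5591860 to 5775467, plus strand) was at 2070.1 and 2019 in NIC-Prmt6 and 1034 and 813 in NIC, by 1.16 ± 0.18 (adjusted p = 0.00145). Zeb2 (chromosome 2, 44983632 to 45117395, minus strand) was at 3185 and 3049 in NIC-Prmt6 and 1178 and 1101 in NIC, by 1.45 ± 0.33 (adjusted p = 0.00768). Antisense genes overlap both, and those in the table were low: Zeb2os was at 30.8 and 24.1 in NIC-Prmt6 and 10.4 and 9.10 in NIC, and Gm10125, across from Zeb1, did not exceed 9.46 in any library.

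Prrx1, a homeobox factor of limb, craniofacial and stromal mesenchyme (chromosome 1, 163245119 to 163313710, minus strand), was at 2448 and 2399.7 in NIC-Prmt6 and 615 and 727 in NIC. Its log2 fold change of 1.86 ± 0.28 (adjusted p = 0.00109) was close to that of Twist1.

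Among the products, the fibronectin gene Fn1 had the largest difference of the 10. Fn1 (chromosome 1, 71585520 to 71653200, minus strand) was at 57822 and 59910.5 in NIC-Prmt6 and 7701 and 9957 in NIC, by 2.75 ± 0.29 (adjusted p = 2.27e-04), a 6.72-fold rise on the log2(value + 1) scale. Its annotated antisense neighbour Apol7d shares 292 exon bases with it. Vim, the most abundant of these RNAs per length (chromosome 2, 13573927 to 13582826, plus strand), was at 36099 and 36140.2 in NIC-Prmt6 and 17931 and 18941 in NIC, by 0.97 ± 0.24 (adjusted p = 0.0109), less than 2-fold. Cdh2, the cadherin that replaces E-cadherin in mesenchymal cells (chromosome 18, 16588877 to 16809246, minus strand), was at 254 and 272 in NIC-Prmt6 and 111 and 100.1 in NIC, by 1.31 ± 0.27 (adjusted p = 0.00533).

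With the NIC-Prmt6 pair counted as 1 library, and the NIC-Carm1 pair likewise, 5 of the 10 calls remained: Snai1, Twist1, Zeb1, Prrx1 and Fn1. The calls of Snai2, Twist2, Zeb2, Cdh2 and Vim ended there (adjusted p = 0.132, 0.0661, 0.0633, 0.0626 and 0.0824), and 6 genes passed without NIC-Prmt6 replicate 1.

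NIC-Prmt1 against NIC had the same direction in every gene, and 5 passed the test: Snai1, Twist1, Prrx1, Cdh2 and Fn1. Of all tested genes 15.2% were higher and 14.4% lower, 29.6% in all. In 8 of the 10 every NIC-Prmt1 library lay above both NIC libraries, against 28.2% of all tested genes; the groups overlapped for Snai2 and Twist2. The median log2 fold change was 0.82 over the 10 genes and -0.0037 over all tested genes. Here 5 of 8 fibroblast and 7 of 8 basal markers rose as well, and their part in the differences was not tested.

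Snai1 was at 689, 612 and 887 in NIC-Prmt1, all above the NIC libraries, and rose by 0.80 ± 0.15 (adjusted p = 0.00473). Snai2 was at 368, 189.5 and 267 in NIC-Prmt1, where replicate 2 lay between the NIC libraries. Its log2 fold change was 0.47 ± 0.25 (adjusted p = 0.178), with a 95% interval of -0.087 to 1.03.

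Twist1 was at 303, 239 and 340.0 in NIC-Prmt1 and rose by 0.97 ± 0.22 (adjusted p = 0.00999). Twist2, at 94.4, 74.6 and 101 in NIC-Prmt1, differed by 0.37 ± 0.33 (adjusted p = 0.416); its NIC libraries, at 51.0 and 92.3, overlapped these.

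The Zeb genes and Vim did not pass, although none of their NIC-Prmt1 libraries overlapped NIC. Zeb1 was at 1539, 1069.9 and 1172 in NIC-Prmt1, by 0.44 ± 0.17 (adjusted p = 0.0707). Zeb2 was at 3049, 1629 and 1667 in NIC-Prmt1, by 0.83 ± 0.30 (adjusted p = 0.0617), with replicate 1 nearly as high as NIC-Prmt6. Vim was at 32048, 21769.6 and 26138 in NIC-Prmt1, by 0.51 ± 0.22 (adjusted p = 0.0984).

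Prrx1 was at 1666, 1025 and 1082 in NIC-Prmt1 and rose by 0.88 ± 0.25 (adjusted p = 0.0275), again with replicate 1 well above the others. Cdh2, at 377, 260.0 and 197 in NIC-Prmt1, had the largest log2 fold change of the 10 in this comparison, 1.34 ± 0.25 (adjusted p = 0.00469). Fn1, at 16494, 18695 and 13855 in NIC-Prmt1, rose by 0.89 ± 0.27 (adjusted p = 0.0318), and here replicate 2 was the highest.

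The calls of Snai1 and Cdh2 held in all 22 alternative fits. That of Twist1 ended without NIC replicate 1 (adjusted p = 0.0652). Those of Prrx1 and Fn1 ended without either NIC library, without NIC-Prmt1 replicate 1, and on averaging (adjusted p = 0.0572 for Prrx1 and 0.0587 for Fn1); that of Fn1 also ended without NIC-Prmt1 replicate 2 or either NIC-Prmt6 library, and that of Prrx1 with the replicate block (adjusted p = 0.0691). The count was 2 without NIC replicate 1, 3 without NIC replicate 2, 3 without NIC-Prmt1 replicate 1, which held most skin RNA, and 8 with DESeq2, which added Zeb1, Zeb2 and Vim. Within NIC-Prmt1, replicate 1 also had the highest fibroblast, pericyte, endothelial and basal marker sums. Without NIC-Prmt1 replicate 2, Snai2, Zeb1 and Zeb2 passed (adjusted p = 0.03, 0.036 and 0.044).

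NIC-Carm1 against NIC showed no call for any of the 10 genes with limma, where 6.65% of all tested genes were higher and 9.36% lower. At an unadjusted p under 0.05 there were 4 (Snai2, Twist2, Zeb1 and Vim, all lower in NIC-Carm1), edgeR called 0 and DESeq2 called 1, Vim. In 3 genes (Snai2, Zeb1 and Vim) every NIC-Carm1 library lay below both NIC libraries, against 24.5% of all tested genes, in 1 (Cdh2) every one lay above, against 23.4%, and the other 6 overlapped. The median log2 fold change was -0.26 over the 10 genes and 0.0034 over all tested genes.

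Vim was the nearest to the threshold, at 8560.2, 13554 and 13859 in NIC-Carm1, against 17931 and 18941 in NIC, by -0.65 ± 0.22 (adjusted p = 0.0679). Zeb1 was at 617, 716 and 773 in NIC-Carm1, by -0.39 ± 0.17 (adjusted p = 0.14), and Snai2 at 127, 109 and 148 in NIC-Carm1, by -0.58 ± 0.25 (adjusted p = 0.142). Both lay below NIC in every library without passing the test.

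Snai1 was nearly level with NIC, at 364, 396 and 366 in NIC-Carm1, by -0.14 ± 0.15 (adjusted p = 0.578). Its 95% interval of -0.47 to 0.20 leaves out a 2-fold change in either direction. Twist1 was at 104, 142 and 89.2 in NIC-Carm1, by -0.43 ± 0.22 (adjusted p = 0.207). Twist2 was at 31.5, 60.9 and 34.9 in NIC-Carm1, by -0.74 ± 0.33 (adjusted p = 0.157), with replicates 1 and 3 the lowest of all libraries for that gene.

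Replicate 1 of NIC-Carm1 stood apart from the near-identical replicates 2 and 3 in 4 of these genes. Zeb2 was at 755, 1369 and 1362 and Prrx1 at 514, 882 and 839.8 in NIC-Carm1, so that replicate 1 lay below NIC and the others above it; their log2 fold changes were -0.024 ± 0.30 (adjusted p = 0.969) and 0.12 ± 0.25 (adjusted p = 0.795). Fn1 was at 7890.0, 15652 and 14768 in NIC-Carm1, by 0.48 ± 0.27 (adjusted p = 0.25). Without replicate 1 Fn1 passed, by 0.80 (adjusted p = 0.0106). Replicate 1 was also the lowest NIC-Carm1 library for Vim, though all 3 lay below NIC. Cdh2, at 116, 144 and 157 in NIC-Carm1, was above 111 and 100.1 in NIC, by 0.39 ± 0.25 (adjusted p = 0.322). The count of calls was 1 without NIC-Prmt1 replicate 1, Vim, and 4 with NIC-Prmt1 replicate 1 and NIC-Carm1 replicate 1 both left out, with Fn1, Prrx1 and Zeb2 higher and Vim lower; in that fit 2 of the 4 groups are near-identical pairs. The split of all changed genes was 1044 higher and 1469 lower, and 1312 higher and 1230 lower with upper-quartile rescaling.

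**Figure D2:**
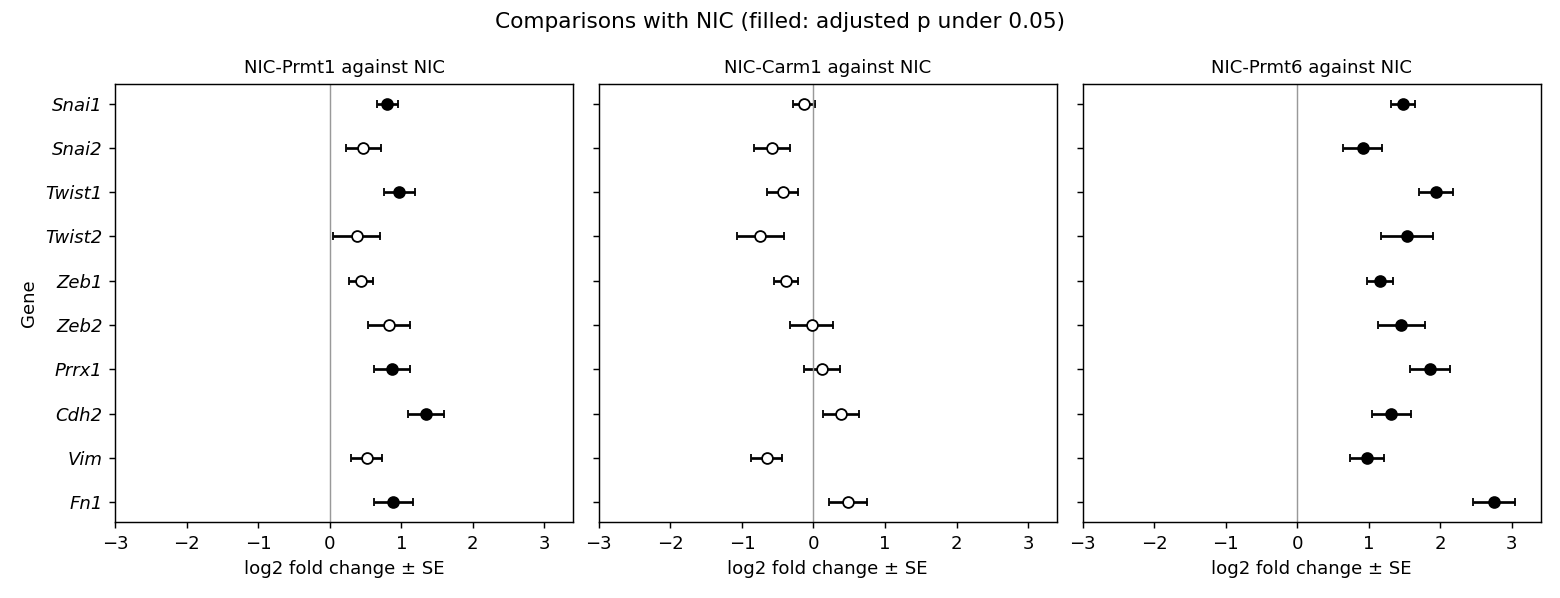
Log2 fold change (x axis) with its standard error for the 10 genes, listed down the page, in the 3 comparisons with NIC; filled points have an adjusted p under 0.05. All 10 points are filled and above 0 for NIC-Prmt6, 5 are filled for NIC-Prmt1 and none for NIC-Carm1.

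Direct comparisons between the transgenic groups tested whether these responses differed. They share libraries with the comparisons above and are not separate evidence for them. NIC-Prmt1 against NIC-Carm1 had 9 of the 10 genes higher in NIC-Prmt1, where 14.9% of all tested genes were higher and 11.8% lower. In the same 9 every NIC-Prmt1 library lay above every NIC-Carm1 library, against 22.0% of all tested genes above and 21.0% below. Twist1 had the largest log2 fold change, 1.40 ± 0.19 (adjusted p = 0.00192), followed by Vim at 1.17 ± 0.19 (adjusted p = 0.00351) and Twist2 at 1.12 ± 0.30 (adjusted p = 0.0216). Both Snail genes rose by similar amounts, Snai2 by 1.05 ± 0.22 (adjusted p = 0.00889) and Snai1 by 0.94 ± 0.13 (adjusted p = 0.00205), as did Zeb2 (0.85 ± 0.27, adjusted p = 0.0409) and Zeb1 (0.83 ± 0.15, adjusted p = 0.00476). Cdh2 and Prrx1 rose by 0.96 ± 0.22 and 0.76 ± 0.23 (adjusted p = 0.013 and 0.0329). Fn1 was the exception, at 0.41 ± 0.24 (adjusted p = 0.229), with a 95% interval of -0.12 to 0.94: its NIC-Prmt1 libraries overlapped NIC-Carm1 replicates 2 and 3. With near-identical libraries averaged 4 genes passed, Snai1, Twist1, Zeb1 and Vim. Leaving out 1 library gave 6 to 9 calls, and those of Prrx1, Zeb2 and Twist2 were lost most often: without NIC-Prmt1 replicate 1 their adjusted p was 0.107, 0.123 and 0.0631.

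NIC-Prmt1 against NIC-Prmt6 had 5 of the 10 genes lower in NIC-Prmt1 (Snai1, Twist1, Zeb1, Prrx1 and Fn1), where 4.94% of all tested genes were lower and 2.54% higher, 7.49% in all. In 8 genes every NIC-Prmt1 library lay below both NIC-Prmt6 libraries, against 26.8% of all tested genes. Fn1 differed most, at -1.86 ± 0.27 (adjusted p = 0.00485), and Prrx1, Twist1, Zeb1 and Snai1 differed by -0.98 ± 0.25, -0.97 ± 0.22, -0.71 ± 0.17 and -0.67 ± 0.15 (adjusted p = 0.0445, 0.0268, 0.0314 and 0.0266). Twist2 was at -1.16 ± 0.33 (adjusted p = 0.0635), Zeb2 at -0.62 ± 0.30 (adjusted p = 0.222), Vim at -0.46 ± 0.22 (adjusted p = 0.217) and Snai2 at -0.45 ± 0.25 (adjusted p = 0.29). Cdh2 was level between the groups, at 0.029 ± 0.25 with a 95% interval of -0.53 to 0.59; NIC-Prmt1 replicate 1 had the highest Cdh2 of all libraries and replicate 3 lay below both NIC-Prmt6 libraries. None of the 5 calls remained without either NIC-Prmt6 library or with the pair averaged (lowest adjusted p of the 5 on averaging 0.118), and without NIC-Prmt1 replicate 2 or 3 the count was 1 and 2. The replicate block left 2. All changed genes split into 399 higher and 776 lower, and into 577 higher and 550 lower with upper-quartile rescaling, which left 3 of the 5.

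NIC-Carm1 against NIC-Prmt6 had all 10 genes lower in NIC-Carm1, with no overlap between the groups. Of all tested genes 20.9% were lower and 18.4% higher, 39.2% in all. Without overlap, 35.2% lay below and 34.6% above. The largest differences were in Twist1 (-2.37 ± 0.22, adjusted p = 9.14e-05), Twist2 (-2.28 ± 0.33, adjusted p = 8.79e-04) and Fn1 (-2.27 ± 0.27, adjusted p = 2.99e-04). Prrx1, Vim, Snai1, Zeb1, Snai2 and Zeb2 lay between -1.74 and -1.47, with adjusted p from 9.48e-05 (Snai1) to 0.00446 (Zeb2). Cdh2 had the smallest, -0.93 ± 0.25 (adjusted p = 0.0161). With near-identical libraries averaged 8 remained, and those of Cdh2 and Zeb2 ended (adjusted p = 0.138 and 0.0553). The Cdh2 call also ended without either NIC-Prmt6 library (adjusted p = 0.0802 and 0.103) and with the replicate block (0.0513).

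**Figure D3:**
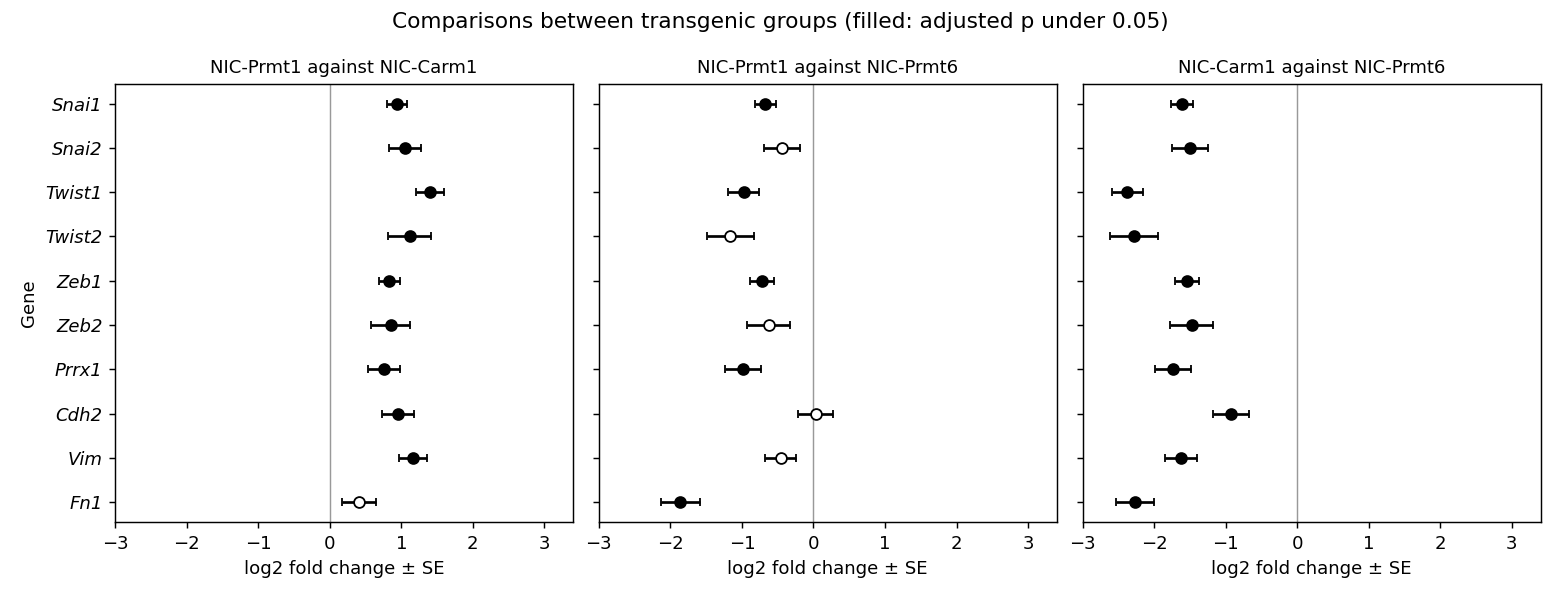
Log2 fold change (x axis) with its standard error for the 10 genes, listed down the page, in the 3 comparisons between transgenic groups, the first-named group over the second; filled points have an adjusted p under 0.05. All filled points lie above 0 in the first panel and below 0 in the others, and Cdh2 lies at 0.029 in NIC-Prmt1 against NIC-Prmt6.

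The genes differed widely in level. In CPM per kilobase of annotated exon (GENCODE M21), Vim was the highest in every group: 220.4 ± 43.2 in NIC-Prmt1, 104 ± 28.9 in NIC-Carm1, 293 ± 1.02 in NIC-Prmt6 and 139.6 ± 3.83 in NIC (mean ± SD). Fn1 came next, at 55.0 ± 9.28 in NIC-Prmt1, 44.9 ± 16.2 in NIC-Carm1, 194 ± 4.04 in NIC-Prmt6 and 27.1 ± 4.6 in NIC. Snai1 was the highest of the regulators, at 17.6 ± 2.99, 9.43 ± 0.716, 27.3 ± 0.607 and 9.15 ± 0.937 in the same order of groups, and Twist1 was second by its median over libraries. Snai2, Zeb1, Zeb2 and Prrx1 had medians from 3.02 to 3.90 CPM per kilobase, with overlapping ranges. Twist2 and Cdh2 were lowest, with medians of 0.986 and 0.873. The annotation the authors counted on is not given in the sources used here, so these lengths may differ from theirs.

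In the Snail and Twist families the same member led in every library. Snai1 exceeded Snai2 per length in all 10 libraries, by 2.33 to 4.15 times in NIC-Prmt1, 3.07 to 4.52 in NIC-Carm1, 3.89 to 4.05 in NIC-Prmt6 and 2.36 to 3.07 in NIC. Twist1 exceeded Twist2 by 6.26 to 6.55 times in NIC-Prmt1, 4.56 to 6.41 in NIC-Carm1, 5.29 to 5.83 in NIC-Prmt6 and 3.35 to 5.27 in NIC. The Zeb genes lay closer to each other, with Zeb1 at 0.981 to 1.37 times Zeb2 in NIC-Prmt1, 1.02 to 1.59 in NIC-Carm1, 1.26 to 1.29 in NIC-Prmt6 and 1.43 to 1.70 in NIC. N-cadherin RNA stayed a small part of E-cadherin RNA in every library: Cdh2 was 0.00883 to 0.0202 times Cdh1 per length in NIC-Prmt1, 0.00572 to 0.00772 in NIC-Carm1, 0.0124 to 0.0135 in NIC-Prmt6 and 0.0028 to 0.00318 in NIC. Vim was 0.155 to 0.293 times the luminal keratin Krt8 in NIC-Prmt1, 0.0649 to 0.157 in NIC-Carm1, 0.321 to 0.324 in NIC-Prmt6 and 0.0728 to 0.0999 in NIC.

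Over the 10 libraries the genes moved together. All 45 pairs had a positive Pearson's r on log2(value + 1), from 0.60 (Twist2 with Cdh2) to 0.98 (Snai1 with Twist1), with a median of 0.88. The libraries fall into 4 groups, and 4 of them form near-identical pairs, so the points are not independent samples. These r values include the group differences given above and are not separate evidence for them. No range of r over pairs of all tested genes is given for comparison. Zeb2 and Prrx1 (0.97) and Zeb1 and Vim (0.95) were other close pairs, and Cdh2 and Fn1 were among the least alike (0.69).

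**Figure D4:**
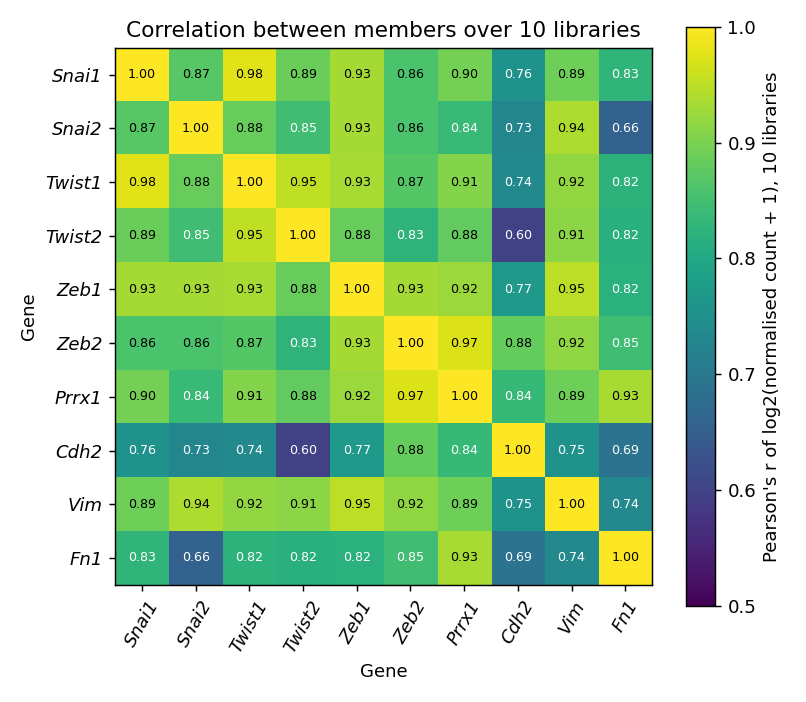
Pearson's r between the 10 genes on log2(normalised count + 1) over 10 libraries; brighter cells are higher. Twist2 with Cdh2 is the lowest at 0.60 and Snai1 with Twist1 the highest at 0.98.

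Among all tested genes, those with the pattern most like each of these over the 10 libraries were the following. Snai1 was most like Dbn1, which encodes an actin-binding protein (r = 0.99), Plekho2 and Thy1, a surface protein of fibroblasts and T cells. Snai2 was most like Rgs16, Cdk11b and Pvrl3 (0.98, 0.98 and 0.97), and Twist1 most like Ms4a4d, Iglon5 and the collagen VI gene Col6a2 (0.99, 0.98 and 0.98). Twist2 was most like Spry4, Ptgis and Ndn (0.98, 0.97 and 0.97). Zeb1 was most like Nfatc1, Itpkb and Tacc1, and Zeb2 most like Pde3a, Tns1 and Mecom, all at 0.99. Prrx1 was most like Ebf1, a transcription factor of adipocyte and B cell lineages, the receptor gene Axl and the matrix gene Tnxb (0.99 each). The nearest genes to Cdh2 were Cers4, Heg1 and Ybx2, those to Vim were Abca8b, Lrrc32 and Anxa3, and those to Fn1 were the matrix gene Emilin2, Adgrd1 and Fndc1, again all at 0.99.

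Other regulators of the transition were called in both directions. Of 11 (Snai3, Foxc1, Foxc2, Foxq1, Tcf3, Tcf4, Sox4, Sox9, Hmga2, Gsc and Klf8), 3 rose and 2 fell in NIC-Prmt6 against NIC, with a median log2 fold change of 0.52, near the shares of all tested genes (19.0% and 17.8%). The E-box factor gene Tcf4 rose by 0.64 ± 0.10 (adjusted p = 0.00149) and the homeobox gene Gsc by 2.73 ± 0.44 (adjusted p = 0.0015), with a low mean of 68.6 in NIC-Prmt6 and 9.45 in NIC, while the luminal progenitor factor gene Sox9 fell, at -0.88 ± 0.16 (adjusted p = 0.00314). In NIC-Prmt1 against NIC 1 rose, Tcf3 (0.48 ± 0.10, adjusted p = 0.00763), and 2 fell, Sox4 (-1.12 ± 0.23, adjusted p = 0.00773) and Sox9 (-0.54 ± 0.15, adjusted p = 0.0227). In NIC-Carm1 against NIC Tcf3 rose (0.39 ± 0.10, adjusted p = 0.0287) and Sox9 fell (-0.76 ± 0.15, adjusted p = 0.00997).

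Other mesenchymal effector genes went more with the 10 in NIC-Prmt6 and NIC-Prmt1. Of 14 (Cdh11, Sparc, Tnc, S100a4, Mmp2, Mmp14, Loxl2, Lox, Itga5, Axl, Cd44, Cald1, Tgfbi and Ncam1), 9 rose and 1 fell in NIC-Prmt6 against NIC, with a median log2 fold change of 1.19. The 3 with the smallest p were the matrix cross-linking enzyme gene Loxl2 (1.84 ± 0.16, adjusted p = 1.0e-04), the receptor tyrosine kinase gene Axl (1.43 ± 0.16, adjusted p = 3.16e-04) and the membrane metalloproteinase gene Mmp14 (1.53 ± 0.18, adjusted p = 3.86e-04). In NIC-Prmt1 against NIC 7 rose and 1 fell, with Mmp14 at 1.29 ± 0.17 (adjusted p = 0.00114) and Loxl2 at 0.95 ± 0.15 (adjusted p = 0.00227) among the rises, and the hyaluronan receptor gene Cd44 as the fall (-0.87 ± 0.16, adjusted p = 0.00439). In NIC-Carm1 against NIC 1 rose, Mmp14 (1.05 ± 0.17, adjusted p = 0.00446), and 3 fell, among them Cd44 (-0.90 ± 0.16, adjusted p = 0.00642) and the integrin gene Itga5 (-0.65 ± 0.13, adjusted p = 0.0104). Over all tested genes 19.0% rose and 17.8% fell in NIC-Prmt6, 15.2% and 14.4% in NIC-Prmt1, and 6.65% and 9.36% in NIC-Carm1. The NIC-Carm1 counts, 1 and 3 of 14, are too few to be a result about the list.

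Some epithelial adhesion and splicing genes fell in each of the 3 comparisons, which share the NIC libraries. Of 14 (Cdh1, Epcam, Esrp1, Esrp2, Grhl2, Ovol1, Ovol2, Cldn3, Cldn4, Cldn7, Ocln, Dsp, Pkp3 and Crb3), 10 fell in NIC-Prmt6, 8 in NIC-Prmt1 and 7 in NIC-Carm1 against NIC, and 0 rose; the median log2 fold changes were -0.76, -0.50 and -0.58. Over all tested genes 17.8%, 14.4% and 9.36% fell in that order of groups, and 19.0%, 15.2% and 6.65% rose. Epcam, an adhesion protein of epithelial cells, fell, at -1.44 ± 0.18 (adjusted p = 4.50e-04) in NIC-Prmt6, -1.14 ± 0.16 (adjusted p = 0.00153) in NIC-Prmt1 and -0.95 ± 0.16 (adjusted p = 0.00586) in NIC-Carm1. The splicing regulator gene Esrp1, which is lost in the transition, and the epithelial transcription factor gene Grhl2 fell in NIC-Prmt6, at -0.70 ± 0.11 (adjusted p = 0.00165) and -0.49 ± 0.081 (adjusted p = 0.00185). In NIC-Carm1 neither passed, at 0.072 ± 0.10 (adjusted p = 0.683) and 0.11 ± 0.074 (adjusted p = 0.358), nor did the related Esrp2 (-0.012 ± 0.13, adjusted p = 0.964). The E-cadherin gene Cdh1 fell in NIC-Prmt6 (-0.79 ± 0.13, adjusted p = 0.00185), NIC-Prmt1 (-0.75 ± 0.12, adjusted p = 0.00248) and NIC-Carm1 (-0.80 ± 0.12, adjusted p = 0.00341). The tight junction gene Ocln fell in NIC-Prmt6 (-0.95 ± 0.16, adjusted p = 0.00191), NIC-Prmt1 (-0.78 ± 0.15, adjusted p = 0.00462) and NIC-Carm1 (-0.91 ± 0.15, adjusted p = 0.00436). The values of Cdh1 and Ocln in NIC-Prmt6, and of Epcam, Esrp1, Esrp2 and Grhl2 in NIC-Carm1, were chosen after they were seen. Ovol1, a repressor of Zeb1 in epithelia, fell in NIC-Carm1 by 1.89 on the log2 scale (adjusted p = 0.00432).

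Of 9 TGF-beta pathway genes (Tgfb1, Tgfb2, Tgfb3, Tgfbr1, Tgfbr2, Smad2, Smad3, Smad4 and Smad7), a pathway that can induce Snail, Twist and Zeb genes, 2 rose and 1 fell in NIC-Prmt6 against NIC, 1 rose and 1 fell in NIC-Prmt1, and 2 fell in NIC-Carm1. Over all tested genes 19.0% rose and 17.8% fell in NIC-Prmt6, 15.2% and 14.4% in NIC-Prmt1, and 6.65% and 9.36% in NIC-Carm1, so these counts and those of the 11 regulators are no result about the lists. The ligand gene Tgfb1 rose by 0.79 ± 0.14 (adjusted p = 0.00221) in NIC-Prmt6 and 0.42 ± 0.12 (adjusted p = 0.0315) in NIC-Prmt1, and the receptor gene Tgfbr2 by 0.74 ± 0.15 (adjusted p = 0.00412) in NIC-Prmt6. The signal transducer gene Smad3 fell in all 3, at -0.79 ± 0.095 in NIC-Prmt6, -0.93 ± 0.087 in NIC-Prmt1 and -0.67 ± 0.087 in NIC-Carm1 (adjusted p = 3.87e-04, 3.28e-04 and 0.0019). Smad7, the pathway's feedback inhibitor, fell in NIC-Carm1 (-1.32 ± 0.17, adjusted p = 0.00176).

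Markers of stromal and vessel cells were higher, as these genes were, in NIC-Prmt6 and NIC-Prmt1 against NIC. All 8 fibroblast, 6 pericyte and 7 endothelial markers rose in NIC-Prmt6 against NIC, and 5 of 8, 6 of 6 and 7 of 7 rose in NIC-Prmt1. Of all tested genes 19.0% rose in NIC-Prmt6 and 15.2% in NIC-Prmt1. Fibroblast markers, given above for NIC-Prmt6 and NIC, summed to 5311 to 6962 CPM in NIC-Prmt1 and 3517 to 3983 in NIC-Carm1. Pericyte markers summed to 1111 to 1150.5 CPM in NIC-Prmt6, 815 to 1270.3 in NIC-Prmt1 and 522 to 708 in NIC-Carm1, against 356 to 382 in NIC, and endothelial markers to 3042 to 3045, 2380.3 to 3432 and 1231 to 1628 CPM in that order of groups, against 1185 to 1421 in NIC. None of these markers was at 0 in any library. In NIC-Carm1 0 of 8 fibroblast, 3 of 6 pericyte and 0 of 7 endothelial markers rose and 0 fell. Of all tested genes 6.65% rose and 9.36% fell there. All 6 pericyte markers lay above NIC in NIC-Carm1 without overlap, against 23.4% of all tested genes. The part of stromal and vessel cells in the differences of the 10 genes was not tested.

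Set against the fibroblast sum of the same library, the 10 genes no longer followed 1 pattern. Per 1000 CPM of fibroblast markers, Vim was at 112 CPM in both NIC-Prmt6 libraries, 163 to 182 in NIC-Prmt1 and 83.7 to 161 in NIC-Carm1, against 178 to 212 in NIC. Zeb1 was at 6.24 to 6.43 in NIC-Prmt6, 7.35 to 8.76 in NIC-Prmt1 and 6.04 to 8.96 in NIC-Carm1, against 7.63 to 12.2 in NIC. On this scale 6 of the 10 genes (Snai1, Snai2, Zeb1, Zeb2, Cdh2 and Vim) lay below NIC in both NIC-Prmt6 libraries, 3 (Twist1, Prrx1 and Fn1) lay above, and Twist2 overlapped. The fibroblast sum itself rose, with a median of 12434 CPM in NIC-Prmt6 and 3425 CPM in NIC. A gene that rose by less than this sum therefore tends to lie below NIC on this scale. The share of all tested genes on this scale was not computed, so these counts are no result about the 10 genes. Fn1 was at 179.6 to 185 in NIC-Prmt6, 86.8 to 140.3 in NIC-Prmt1 and 77.2 to 185 in NIC-Carm1, against 91.2 to 93.5 in NIC. Twist1 was at 1.72 to 1.83 in NIC-Prmt6, 1.73 to 2.13 in NIC-Prmt1 and 1.01 to 1.68 in NIC-Carm1, against 1.49 to 1.63 in NIC, and Snai1 at 3.51 to 3.61, 3.92 to 5.56 and 3.56 to 4.69 in the same order, against 3.63 to 5.20 in NIC. These ratios carry no test, and the fibroblast sum is only 1 of the cell types that express the genes. The markers in the sum rose unequally in NIC-Prmt6. Pdgfra was at 188 and 196 CPM there, against 65.0 and 70.7 in NIC, and Dpt at 378 and 376, against 36.6 and 56.9. The ratios therefore depend on which fibroblast markers are summed.

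Other cell types differed between libraries as well. Of all tested genes 19.0% rose and 17.8% fell in NIC-Prmt6 against NIC. These shares were 15.2% and 14.4% in NIC-Prmt1, and 6.65% and 9.36% in NIC-Carm1. Basal and myoepithelial markers, of which 7 of 8 rose in NIC-Prmt1 and 1 in NIC-Prmt6, summed to 2992 to 5406 CPM in NIC-Prmt1, 1567 to 1659 in NIC-Carm1 and 1818 to 1819 in NIC-Prmt6, against 1293 to 1556 in NIC. In NIC-Prmt6 3 of the 8 lay above NIC without overlap and 4 below, with a median log2 fold change of -0.16. Of all tested genes 38.1% lay above and 38.6% below without overlap in NIC-Prmt6, so these counts are no result about the list. Acta2 was at 698 and 692 CPM there, against 381 and 400 in NIC, and Myh11 at 693 and 688, against 560 and 452. Luminal markers, of which 3 of 6 fell and 1, Krt19, rose in NIC-Prmt1 (0.60 ± 0.14, adjusted p = 0.0127), and of which 4 fell in NIC-Carm1 and 5 in NIC-Prmt6, summed to 5707 to 7675 CPM in NIC-Prmt1, 5287 to 6332 in NIC-Carm1 and 5222 to 5232 in NIC-Prmt6, against 8361 to 10001 in NIC, so the labelled epithelial cell type was present in all libraries; Epcam and Cdh1 are in this list and in the epithelial adhesion list. Macrophage markers, of which 2 of 6 rose in NIC-Prmt1, 2 in NIC-Carm1 and 5 in NIC-Prmt6, summed to 176 to 359.9, 334 to 478 and 563 to 578 CPM in that order, against 118 to 236 in NIC. Adipocyte markers summed to 615 to 946, 342 to 371 and 1112 to 1139.8 CPM in that order, against 254 to 324 in NIC, nearly all of it Fabp4, which endothelial cells also express. Skin keratinocyte markers were at 787 CPM in replicate 1 and 85.1 CPM in replicate 3 of NIC-Prmt1, and at most 4.38 CPM elsewhere; Lor, Krt25, Krt77 and Krtdap were at 0 in 1 library each. Skeletal muscle markers did not exceed 64.4 CPM in any library. NIC-Prmt1 replicate 1, the library with most skin RNA, was also the highest NIC-Prmt1 library for Snai2, Zeb1, Zeb2, Prrx1, Cdh2 and Vim. Within NIC-Prmt1 it also had the highest fibroblast, pericyte, endothelial and basal sums (6962, 1270.3, 3432 and 5406 CPM). The part of skin or of these other cell types in its values was not tested beyond leaving that library out.

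**Figure D5:**
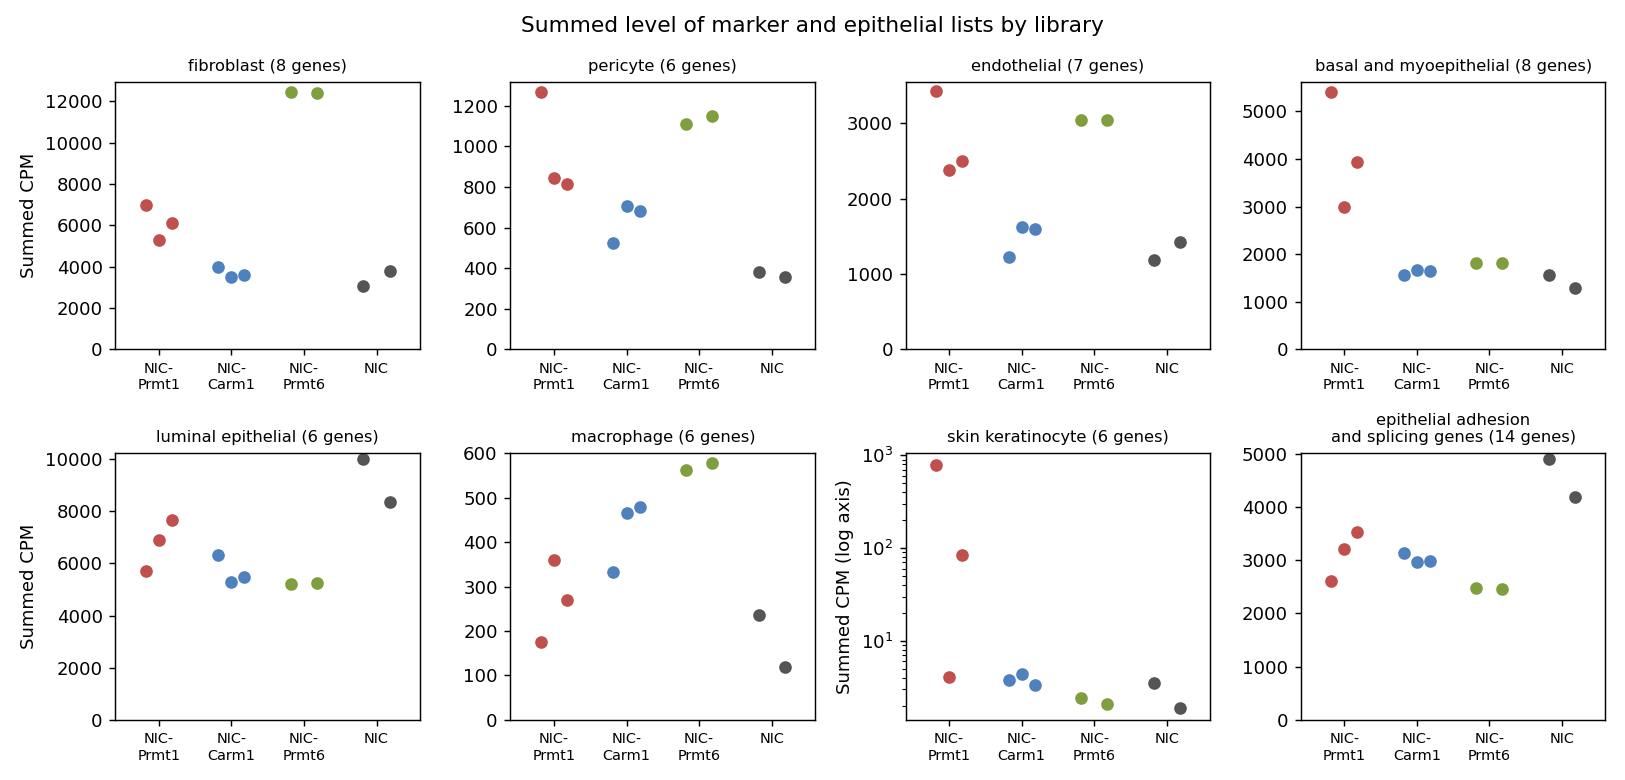
Summed CPM (y axis; linear from 0, and a log axis for skin keratinocytes) of marker lists and of the epithelial adhesion and splicing list in every library, by group; each point is a library. Fibroblast markers reach 12421 to 12448 CPM in NIC-Prmt6, against 3056 to 3795 CPM in NIC, and luminal markers are highest in NIC.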

How the data were processed

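The submitters' processing notes name the mm10 build, TopHat2 2.0.10, HTSeq 0.6.0 and DESeq 1.18.0; the annotation and strand setting are not named there. The authors deposited a normalised signal per gene and library, the read count divided by a size factor. In every column 100% of values were whole multiples of the smallest step (tolerance 0.01), which gave back whole reads. Every gene in the deposited table has at least 10 reads in its highest library.

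The main test was limma-trend (limma 3.58.1, R 4.3.3) on log2(value + 1) for genes that reached 10 in 2 or more libraries, with 4 group means in 1 fit and Benjamini-Hochberg adjustment at 0.05. It was tested on simulated data of independent libraries with equal spread in all groups, which the near-identical pairs here do not match. Fold changes on this scale understate changes of low genes. Alternatives included DESeq2 1.42.0 and edgeR 4.0.16 on recovered reads (edgeR called from 1210 in NIC-Prmt1 against NIC-Prmt6 to 6210 genes in NIC-Carm1 against NIC-Prmt6, limma from 1175 to 6157), other scalings, pseudocounts and filters, a replicate block, the 2 groups alone, leaving out each library, and averaging near-identical libraries. The design allowed limma for a file without raw counts. All 10 genes are named in every comparison, and up to 3 genes of each other list by smallest p, with the 3 tested genes most correlated with each of the 10. The CANNTG search was added after seeing the data. Some genes of the other lists are not reported here and are not counted in them. The genes and lists were chosen with earlier results of these data known.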

Additional observations from a re-analysis of the deposited data

How the results depend on the processing

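Of the recomputed values, 60 log2 fold changes of single genes under 22 alternatives, 1187 kept direction and side of the threshold, 95 lost the call, 25 gained one and 13 changed sign. Near-identical libraries averaged gave 3 calls instead of 5 in NIC-Prmt1 against NIC, 5 instead of 10 in NIC-Prmt6 against NIC, 4 instead of 9 in NIC-Prmt1 against NIC-Carm1 and 0 instead of 5 in NIC-Prmt1 against NIC-Prmt6; this fit has fewer libraries, and over all genes its calls were 2601, 1664, 1355 and 21 instead of 4645, 5778, 4199 and 1175, with 340 instead of 2513 in NIC-Carm1 against NIC and 1262 instead of 6157 in NIC-Carm1 against NIC-Prmt6. Averaging also takes the small spread of the near-identical pairs out of the shared estimate, and its part in the lower counts was not tested. DESeq2 gave 8 instead of 5 in NIC-Prmt1 against NIC and 1 instead of 0 in NIC-Carm1 against NIC. In NIC-Prmt1 against NIC-Prmt6 upper-quartile rescaling gave 3 and the replicate block 2 of 5. Leaving out NIC-Prmt1 replicate 1 and NIC-Carm1 replicate 1 together, chosen after seeing the data, gave 4 in NIC-Carm1 against NIC and 9 in NIC-Prmt1 against NIC-Prmt6. Over the fits that left out 1 library the counts ran from 2 to 7 (NIC-Prmt1 against NIC), 0 to 1 (NIC-Carm1 against NIC), 6 to 10 (NIC-Prmt6 against NIC), 6 to 9 (NIC-Prmt1 against NIC-Carm1), 0 to 6 (NIC-Prmt1 against NIC-Prmt6) and 9 to 10 (NIC-Carm1 against NIC-Prmt6). The cause was not tested where none is named.

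Over these alternatives, signs changed only for values that were not called in the main fit. Among them, Zeb2 in NIC-Carm1 against NIC passed limma with the opposite sign when NIC-Prmt1 replicate 1 and NIC-Carm1 replicate 1 were left out (adjusted p = 0.0272). It is counted above as a sign change. In NIC-Carm1 against NIC Zeb2, at -0.024, was 0.022 with upper-quartile rescaling, 0.028 with DESeq2, 0.036 with edgeR and 0.26 without NIC-Prmt1 replicate 1 and NIC-Carm1 replicate 1, and from -0.17 to 0.26 without 1 library. Prrx1, at 0.12, was -0.0080 on averaging and from -0.026 to 0.36 without 1 library. In NIC-Prmt1 against NIC-Prmt6 Cdh2, at 0.029, was -0.21 with both libraries left out and from -0.21 to 0.25 without 1. Twist2 in NIC-Prmt1 against NIC, at 0.37, ran from -0.047 to 0.80 without 1 library. The replicate numbers gave no clear sign of pairing: of 13 same-numbered pairs across groups the deviations correlated at -0.13 to 0.10. Groups of 2 and near-identical libraries limit this check, so it cannot decide whether the libraries were paired. With the block, the counts were 4 in NIC-Prmt1 against NIC, 0 in NIC-Carm1 against NIC, 10 in NIC-Prmt6 against NIC, 7 in NIC-Prmt1 against NIC-Carm1 and 9 in NIC-Carm1 against NIC-Prmt6. With 2 or 3 libraries a group, the standard errors come from the spread between libraries, which includes counting noise. Depth can matter for low genes such as Twist2, with 28 reads in NIC-Carm1 replicate 1, and its part was not tested.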
